A study of Homo sapiens with 4 samples.

Results

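Potassium channel genes were examined in T24 cells, a human bladder carcinoma line. The genes were those whose symbol has the KCN form, and antisense, opposite-strand and imprinted transcripts with KCN names were left out, which gave 94 of the 57879 genes in the files. RNAseq had been performed on 4 libraries: 2 from control cells that carried the empty vector, and 2 from cells that stably expressed a FLAG-tagged catalytic domain of TET1 (TET1-CD). The cells of both groups were grown in RPMI medium with fetal calf serum. TET1 is a dioxygenase that oxidizes 5-methylcytosine in DNA, a step towards demethylation, and the series asked which transcripts differ once its catalytic domain is overexpressed. No library of the enzymatically inactive mutant was analysed here, and nothing in the sources used here says whether the 2 libraries of a group came from separate cultures or clones, so every p-value measures only the spread between these libraries.

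Potassium channels let potassium ions leave or enter the cell through a selective pore and so set the membrane potential. In voltage-gated channels depolarization opens the pore, in calcium- and sodium-activated channels intracellular ions do, inward rectifiers carry inward current more easily than outward current, and tandem-pore-domain (K2P) channels leak at rest. In epithelial and tumour cells these channels take part in volume control, the driving force for calcium entry, proliferation and migration. The 94 genes were divided by protein family into 30 voltage-gated pore-forming genes, 10 voltage-gated modifier genes whose subunits form no working channel alone, 8 calcium- and sodium-activated genes, 15 inward rectifier genes, 15 K2P genes and 16 auxiliary subunit genes.

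Library totals were 17442143 to 20295266 estimated fragments, and potassium channel genes took 2587 to 3296 of them. TET1 itself had 111 and 83 counts in control and 2939 and 3310 in TET1-CD cells, a 32.5-fold difference (edgeR log2 fold change 5.02, SE 0.0819, adjusted p = 4.90e-10). KRT7, KRT8 and KRT18, keratins of simple epithelium, had at least 10759 counts in every library, whereas the epithelial cadherin gene CDH1 had 0 to 2 counts. Among 7 urothelial genes KRT20 was at 0, the 4 uroplakin genes had at most 6 counts, PPARG had 363 to 461 and GATA3 was called higher (19 and 19 against 46 and 44). KRT7, KRT18 and KRT19 were also called higher, by 1.27-fold, 1.13-fold and 2.01-fold, whereas KRT8 and EPCAM were not called (log2 fold changes -0.08 and 0.54). Of 4 mesenchymal genes, VIM and FN1 were called lower, by 1.31-fold and 1.20-fold. The other mesenchymal genes, CDH2 and ZEB1, were not called (log2 fold changes -0.04 and 0.09). The glial gene MBP and the cardiac muscle gene ACTC1 were called higher, by 1.39-fold and 4.72-fold. Of 4 leukocyte genes, CD14 had 8 to 15 counts and the others, PTPRC included, at most 2. Of 4 neuronal genes, RBFOX3 had 0 or 1 count, SYP 7 to 15, SYT1 15 to 21 and SNAP25 59 to 111, and those tested were not called. The smooth muscle list of 3 genes summed to 2.04 and 1.5 FPKM in control and 8.60 and 6.78 in TET1-CD libraries, with DES at 0 or 1 counts and ACTG2 at 39 and 36 against 152 and 145 counts. The part of these marker genes in the results below was not tested.

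Most potassium channel genes were barely transcribed in T24 cells. Of the 94 genes, 50 had at most 3 counts in each library, and 14 of these 50 had 0 counts in all 4 libraries. The remainder covered a wide range, and FPKM (fragments scaled by transcript length and by library size) is used below wherever levels of different genes are compared. The family summed to 60.4 and 62.6 FPKM in control libraries and 56.2 and 62.1 FPKM in TET1-CD libraries. KCNAB2, which encodes a cytosolic beta subunit of voltage-gated channels, made up 34.2% of that sum on average over the 4 libraries. KCNK1, a K2P channel gene, made up 21.4%, and KCNN4, which encodes the intermediate-conductance calcium-activated channel, 8.64%. With KCNK6, KCNJ2, KCNJ8 and KCNIP3, these 7 genes held 80.0% of the family's FPKM. The mean over the 4 libraries exceeded 1 FPKM for 11 genes.

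**Figure D1:**
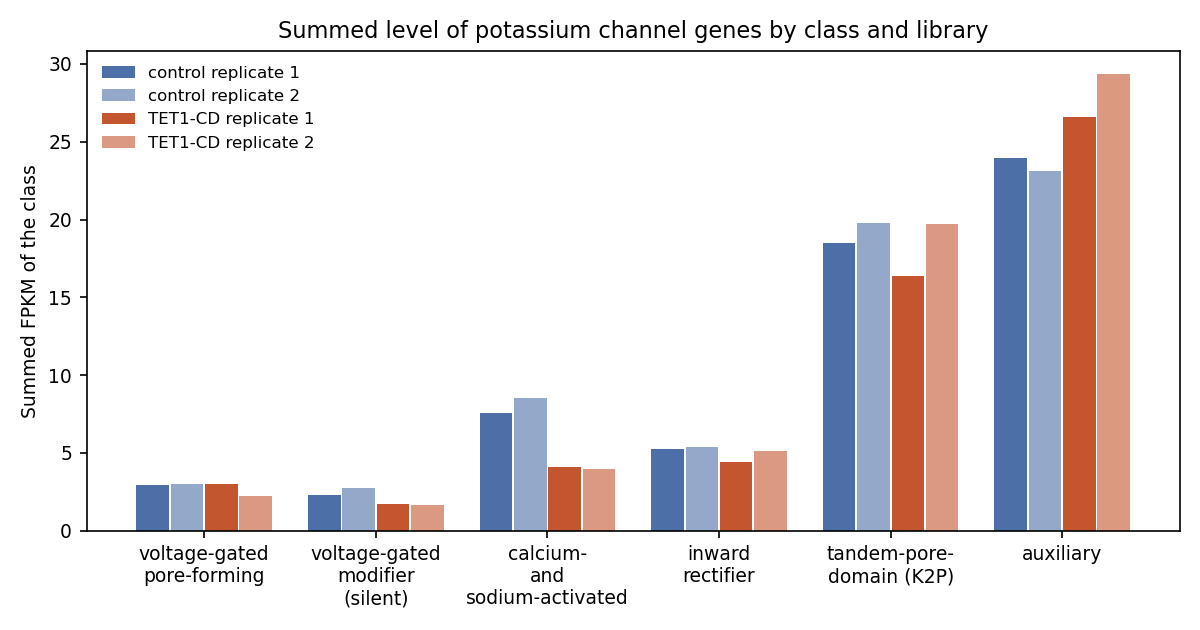
Summed FPKM of the potassium channel genes (y axis) in each class (x axis), with 1 bar per library, blue for control and red for TET1-CD. Auxiliary genes and K2P genes gave the highest bars in every library, and the calcium- and sodium-activated class was at 7.57 and 8.55 FPKM in control and at 4.08 and 3.99 in TET1-CD.

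For the comparison, counts were summed per gene and tested with edgeR across all genes, and a gene was called when its p-value, adjusted over all 14573 genes tested, was under 0.05. The filter on low counts passed 27 of the 94 genes. Of these, 18 reached the filter in both groups, 6 in the control libraries alone, 2 in the TET1-CD libraries alone and 1 in neither group alone. The 67 genes not tested summed to 51 and 61 counts in control and to 91 and 111 counts in TET1-CD libraries. Members tested were low genes, with a median of 0.455 FPKM against 9.64 FPKM over all genes tested.

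In TET1-CD cells 9 potassium channel genes were lower and 4 were higher. KCNS1, KCND1, KCNN4, KCNJ16, KCNJ2, KCNMA1, KCND2, KCNK3 and KCNK6 fell. KCNS3, KCNMB3, KCNAB2 and KCNC4 rose. Thus 13 of 27 genes were called, or 48.1%, where 19.7% of all genes tested were called in either direction. Called as lower were 33.3% of the members against 9.61% of all genes, and called as higher 14.8% against 10.0%. Of the 13, 10 reached the filter in both groups, whereas KCNMA1 and KCNJ16 entered through the control and KCNS3 through the TET1-CD libraries, and such genes can pass only by being high in that group. With a fold change of at least 2 in addition, 8 of 27 genes were called against 3.77% of all genes, 5 of them lower against 1.04% and 3 higher against 2.72%. By counts scaled to library size, the groups did not overlap in the lower direction for 11 of the 27 members, or 40.7%, against 30.2% of all genes tested. In the higher direction they did not for 8, or 29.6%, against 30.8%. All 13 called genes are among these, which their selection by the test makes likely. The median log2 fold change was -0.19 over the 27 genes and 0.00 over all genes tested. Since RNA was measured in bulk, fewer cells transcribing a gene and less RNA per cell cannot be told apart.

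The count of called genes depended on the tool. The study used DESeq2 and required a fold change of at least 2 with p under 0.05. At an adjusted p under 0.05 and with no fold limit, DESeq2 called 3 of the 30 genes it could test here. These were 10.0%, against 9.26% of all genes, a share near that of all genes. Those 3 were KCNS1, KCND1 and KCNN4. At an unadjusted p under 0.05, in either direction, 13 members passed by DESeq2 and 15 by edgeR. The share of all genes at that threshold was not counted, so these numbers show no excess. Limma on log2 FPKM called 4 of 32, against 7.22%, namely KCNS1, KCND1, KCNN4 and KCNMB3. Of the 13 calls, 10 were lost with DESeq2 and 9 with log2 FPKM, which is not repeated for every gene below. Scaling by library size alone left edgeR at 13 of 27, against 20.1%. With 1 library left out, its group has a lone library that is assumed to vary like the pair of the other group. The control pair differed more than the TET1-CD pair (chi-square per gene 6.46 against 2.75), so fits without a TET1-CD library rest on the wider spread and those without a control library on the narrower. Without TET1-CD replicate 1 edgeR called 3 of 28 genes, against 5.48% of all genes, and without TET1-CD replicate 2 it called 4 of 28, against 6.77%. KCNS1, KCND1 and KCNN4 were called in each of the 12 alternatives tried. All 13 kept their sign in every alternative that tested them. Their groups did not overlap and every alternative reused these 4 libraries, so a change of sign was hardly possible. The kept signs are therefore no separate support.

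**Figure D2:**
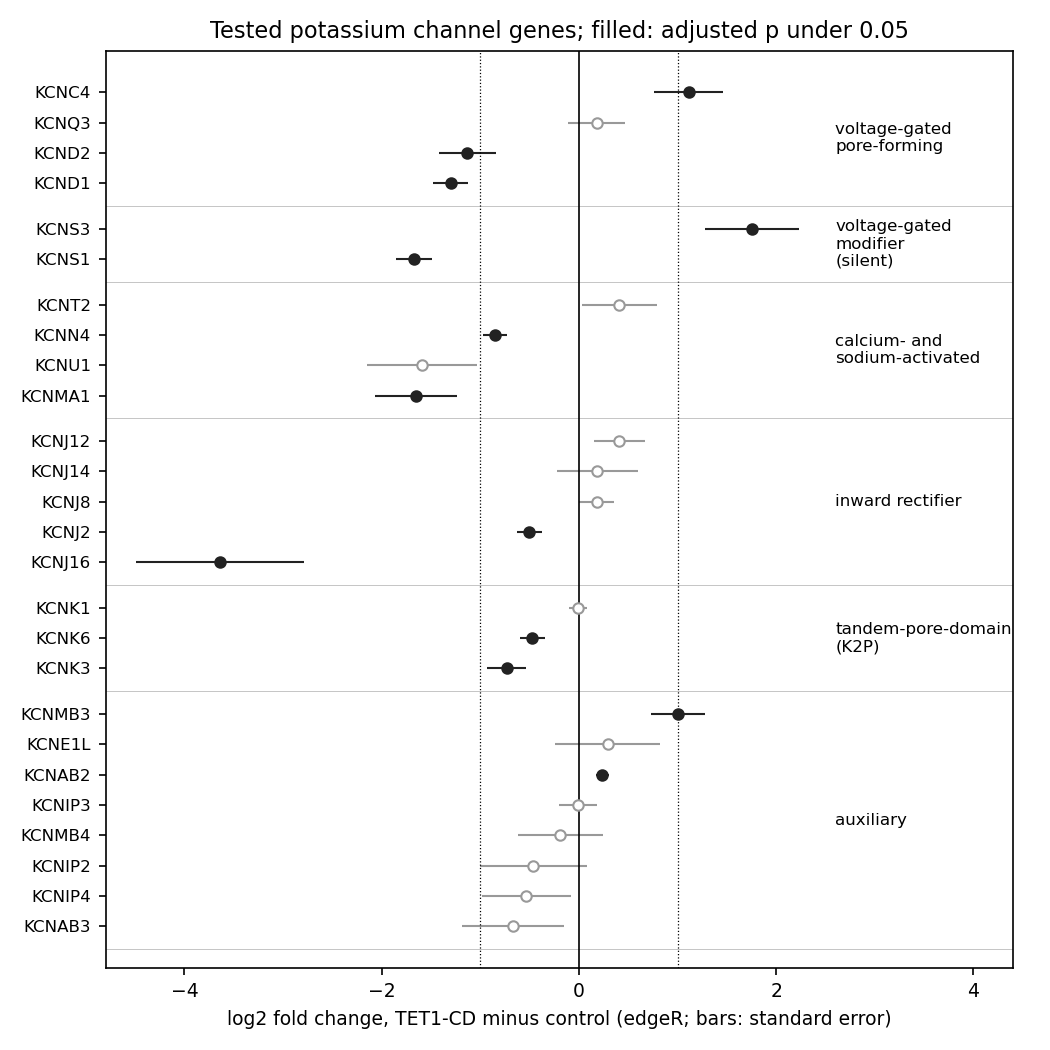
The log2 fold change of tested potassium channel genes (x axis, TET1-CD minus control, bars are the standard error), grouped by class, with filled points for an adjusted p under 0.05 and dotted lines at a fold change of 2. Filled points lie to the left for 9 genes and to the right for 4, from -3.64 for KCNJ16 to 1.75 for KCNS3.

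Since TET1 acts at CG dinucleotides, the promoters of called genes are shown for the number of CG sites they hold. Windows of 250 bases before the RefSeq start (GRCh38.p14) were available for 70 of the 94 genes, and for genes with several starts the window with most CG was counted. The motif searched was CG, which reads the same on both strands. The 5 below are the called genes with a single start that held the fewest and the most CG sites among those lower, and the 1 such gene that was higher. KCNN4 lies at chr19:43780974-43781223 on the minus strand with 5 CG sites, KCND1 at chrX:48971845-48972094 on the minus strand with 8, KCNK3 at chr2:26692472-26692721 on the plus strand with 27, KCNJ2 at chr17:70169282-70169531 on the plus strand with 32, and KCNC4 at chr1:110210064-110210313 on the plus strand with 36. Sequences run 5′ to 3′ along the gene, with CG in capitals.
KCNN4: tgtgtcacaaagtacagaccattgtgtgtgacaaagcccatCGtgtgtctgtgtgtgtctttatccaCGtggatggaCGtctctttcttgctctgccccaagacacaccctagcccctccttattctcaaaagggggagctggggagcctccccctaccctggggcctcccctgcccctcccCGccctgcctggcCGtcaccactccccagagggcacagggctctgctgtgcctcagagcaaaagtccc
KCND1: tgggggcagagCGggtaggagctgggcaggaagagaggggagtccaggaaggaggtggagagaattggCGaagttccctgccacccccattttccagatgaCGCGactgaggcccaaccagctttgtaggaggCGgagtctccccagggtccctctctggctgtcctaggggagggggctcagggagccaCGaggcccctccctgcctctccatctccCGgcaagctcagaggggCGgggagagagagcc
KCNK3: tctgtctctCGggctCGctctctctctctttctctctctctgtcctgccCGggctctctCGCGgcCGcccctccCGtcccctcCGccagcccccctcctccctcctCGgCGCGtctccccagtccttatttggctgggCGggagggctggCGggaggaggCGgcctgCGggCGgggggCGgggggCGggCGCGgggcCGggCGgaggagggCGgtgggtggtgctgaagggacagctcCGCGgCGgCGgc
KCNJ2: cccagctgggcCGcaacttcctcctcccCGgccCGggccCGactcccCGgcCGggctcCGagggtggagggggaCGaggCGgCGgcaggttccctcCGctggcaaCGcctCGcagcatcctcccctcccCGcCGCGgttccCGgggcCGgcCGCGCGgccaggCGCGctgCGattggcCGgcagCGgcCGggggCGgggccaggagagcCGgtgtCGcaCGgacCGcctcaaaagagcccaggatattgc
KCNC4: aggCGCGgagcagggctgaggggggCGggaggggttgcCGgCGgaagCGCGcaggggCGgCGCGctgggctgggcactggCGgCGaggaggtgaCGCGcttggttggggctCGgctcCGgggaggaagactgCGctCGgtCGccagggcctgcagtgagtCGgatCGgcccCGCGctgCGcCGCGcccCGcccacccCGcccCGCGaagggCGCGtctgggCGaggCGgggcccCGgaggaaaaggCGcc

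The median was 19.5 CG sites over the 70 potassium channel promoters and 12 over the promoters of 27305 genes. At least 12 CG sites were held by 64.3% of potassium channel promoters, 51.5% of all promoters and 69.4% of those of protein-coding genes. Among the 8 lower genes with a window, 4 held at least 12, with a range of 5 to 46. The 46 belong to KCNMA1, whose other start held 1, and KCNS1, also lower, had no window. Among the 4 higher genes, 3 held at least 12. So did 7 of the 8 genes with a window that were tested and not called, and 62.0% of those not tested. The sequences above thus include CG-poor and CG-dense promoters among the genes that fell. Methylation was not measured in these files.

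Voltage-gated pore-forming genes made up the class with most members and few transcripts, 2.25 to 3.02 FPKM in all over the 4 libraries. Of 30 genes 5 were tested, and 2 fell while 1 rose. KCND1 and KCND2 encode pore subunits of the A-type channels, which open briefly on depolarization. KCND1 (ENSG00000102057, chrX:48818639-48827976, hg19 as in the files) had 126 and 113 counts in control cells and 45 and 51 in TET1-CD cells. Its normalised read count was 119 ± 4.01 (SD, n = 2) in control and 48.2 ± 0.485 in TET1-CD cells, a fold change of 2.46 downward (log2 -1.30, SE 0.174, adjusted p = 8.56e-04). Both TET1-CD libraries lay well below both control libraries, and the transcript ENST00000218176 held 93.2% of KCND1 counts in control and 96.3% in TET1-CD. KCND2 (chr7:119913722-120390385) had 49 and 40 against 20 and 20 counts (log2 fold change -1.13, SE 0.289, adjusted p = 0.0221). Its groups were apart too, although its call was lost with DESeq2, with log2 FPKM and without control replicate 1 or either TET1-CD library. Adjusted p ran from 0.0032 to 0.236 over the alternatives.

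KCNC4, a channel gene of the Shaw-related family with fast kinetics, moved the other way. KCNC4 (chr1:110753965-110825722) had 14 and 22 counts in control and 36 and 42 in TET1-CD libraries. Its log2 fold change was 1.11 (SE 0.350) at an adjusted p of 0.04998, just under the threshold. It was called in 6 of the 12 alternatives, and its adjusted p ranged up to 0.329. The call was lost without control replicate 1, where the log2 fold change was 0.71, and without either TET1-CD library. KCNQ3, a subunit of the M-current, had 33 and 26 against 33 and 33 counts and was not called (log2 fold change 0.18, adjusted p = 0.710). The other 25 genes of the class, among them 6 at 0 throughout, were not tested.

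The modifier class showed its 2 tested genes moving in opposite directions. KCNS1 encodes a silent subunit that assembles with Kv2 channels and changes their gating. KCNS1 (ENSG00000124134, chr20:43720951-43729753) had 171 and 169 counts in control cells and 43 and 63 in TET1-CD cells. Its normalised read count went from 170 ± 17.4 (SD, n = 2) to 52.9 ± 10.1, 3.19-fold lower (log2 -1.67, SE 0.179, adjusted p = 2.15e-04), the smallest adjusted p in the family. The higher TET1-CD library was still far under the lower control library, and 1 transcript, ENST00000306117, carried 91.9% of the counts in control and 88.2% in TET1-CD. KCNS3, a silent subunit of the same group, had 8 and 6 counts against 28 and 19 (chr2:18059114-18542882, log2 fold change 1.75, SE 0.476, adjusted p = 0.0284). Low in control and apart in both TET1-CD libraries, KCNS3 passed the filter through the TET1-CD group only. Its call was lost with DESeq2 (adjusted p = 0.206), with log2 FPKM (adjusted p = 0.0999) and when any of the 4 libraries was left out. With 1 library left out, its log2 fold change was 1.37 to 2.08.

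Calcium- and sodium-activated genes had 4 tested members, of which 2 were called, both lower. KCNN4 and KCNT2 reached the filter in both groups, and the others, KCNMA1 and KCNU1, in the control libraries alone. KCNN4 (ENSG00000104783, chr19:44270685-44285409) encodes a channel that calcium-bound calmodulin opens and that hyperpolarizes many non-excitable and tumour cells. It had 250 and 233 counts in control cells and 121 and 145 in TET1-CD cells. Its normalised read count was 241 ± 14.7 (SD, n = 2) against 133 ± 6.60, 1.80-fold lower (log2 -0.85, SE 0.123, adjusted p = 0.00132). KCNN4 took 11.3% and 11.6% of the family's FPKM in control and 6.04% and 5.66% in TET1-CD libraries, a lower share in both TET1-CD libraries than in either control. The transcript ENST00000262888 held 84.4% and 92.4% of KCNN4 counts in the 2 groups.

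KCNMA1, the pore of the large-conductance channel gated by calcium and voltage, had 36 and 34 counts against 6 and 16 (chr10:78629359-79398353, log2 fold change -1.65, SE 0.419, adjusted p = 0.0214). The TET1-CD libraries differed from each other more than the control libraries did. The call was lost with DESeq2 (adjusted p = 0.127) and with log2 FPKM (adjusted p = 0.1875). It was also lost without TET1-CD replicate 1, where the log2 fold change was -1.19. KCNU1, a related gene known from sperm, had 16 and 12 against 5 and 4 counts and was not called (log2 fold change -1.59, adjusted p = 0.0727). KCNT2, a sodium-activated channel gene, was not called either, with a log2 fold change of 0.41.

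Among inward rectifiers, 2 neighbours on chromosome 17 fell. KCNJ2 encodes Kir2.1, a strong rectifier that holds the resting potential, and KCNJ16 encodes Kir5.1, which works together with other Kir subunits. The genes lie 33064 bases apart. KCNJ2 (chr17:68164814-68176189) had 244 and 201 counts in control and 135 and 176 in TET1-CD libraries, 1.42-fold lower (log2 -0.50, SE 0.126, adjusted p = 0.0202). The groups did not overlap by count or after normalization. The call was lost without either TET1-CD library, with DESeq2 (adjusted p = 0.197) and with log2 FPKM (adjusted p = 0.173). The antisense transcript KCNJ2-AS1, which overlaps its start, had 12 and 5 against 4 and 7 counts.

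KCNJ16 (chr17:68049570-68131749) had 15 and 13 counts in control cells and 0 and 2 in TET1-CD cells. The ratio of summed counts was 13.9 with a 95% exact interval from 3.49 to 120, covering counting error only. The fitted log2 fold change was -3.64 (SE 0.852, adjusted p = 0.0154), and without TET1-CD replicate 2 it was -6.79 (adjusted p = 0.0513), since the other TET1-CD library held no count. Without TET1-CD replicate 1 it was -2.79, with an adjusted p of 0.148, and over the alternatives adjusted p ran from 8.84e-04 to 0.148. The files assigned its counts mainly to ENST00000392671 in control replicate 1 and to ENST00000589377 in control replicate 2, so no isoform is named for it.

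The other inward rectifiers did not pass the test. KCNJ8, the Kir6.1 pore of vascular ATP-sensitive channels, had 78 and 80 against 81 and 97 counts (log2 fold change 0.18, SE 0.178, adjusted p = 0.528). KCNJ12 and KCNJ14 had log2 fold changes of 0.41 and 0.19, and reads of KCNJ12 may be shared with its near-identical copy KCNJ18. KCNJ4, which encodes Kir2.3, had 0 and 1 counts against 8 and 10, a ratio of 18.2 with a 95% exact interval from 2.87 to 758. KCNJ4 stayed below the filter in the main test, and with no filter its adjusted p was 0.0181 by edgeR, while DESeq2 gave 0.200. KCNJ4 is named because it had more than 3 counts in both TET1-CD libraries and at most 3 in both control libraries. The separation of its groups and its high ratio, at a level near 0, therefore follow from that choice.

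K2P genes included the second most abundant gene of the family, which was not called. KCNK1 (TWIK1) had 526 and 492 counts in control and 447 and 558 in TET1-CD libraries, with groups that overlapped and a log2 fold change of -0.01 (SE 0.0928, adjusted p = 0.955). KCNK6 (TWIK2), a close relative, had 252 and 206 against 139 and 188 counts (chr19:38810484-38819660, log2 fold change -0.47, SE 0.129, adjusted p = 0.0290). KCNK3 (TASK1), an acid-sensitive leak channel gene, had 149 and 193 against 103 and 102 counts (chr2:26915619-26956288, log2 fold change -0.73, SE 0.198, adjusted p = 0.0279). The KCNK3 control libraries were far apart, at a normalised 173 ± 50.0 (SD, n = 2), and the log2 fold change was -0.42 without control replicate 2 and -1.02 without control replicate 1. The call of KCNK3 was lost without control replicate 2 or either TET1-CD library, and that of KCNK6 without either TET1-CD library. Both calls were also lost with DESeq2 (adjusted p = 0.103 and 0.232) and with log2 FPKM (adjusted p = 0.210 and 0.117). KCNK12 had 2 and 2 against 6 and 4 counts, was not tested and overlaps another gene on the opposite strand. The remaining 11 genes, 4 of them at 0 throughout, were not tested.

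Of 8 auxiliary genes tested, 2 were called, both higher. Of all 8 estimates 5 were lower, with a median log2 fold change of -0.10. KCNAB2 (ENSG00000069424, chr1:6051526-6161253) had 1036 and 824 counts in control cells and 999 and 1164 in TET1-CD cells. The raw counts overlapped, but after scaling to library size the mean was 923 ± 47.2 (SD, n = 2) in control and 1086 ± 32.2 in TET1-CD, a fold change of 1.18 (log2 0.23, SE 0.0665, adjusted p = 0.0340). This was the smallest fold change among the 13 called genes. Its call was lost with DESeq2 (adjusted p = 0.212), with log2 FPKM (adjusted p = 0.181) and without either TET1-CD library. Of the family's FPKM, KCNAB2 made up 33.0% and 28.3% in control and 37.0% and 38.6% in TET1-CD libraries.

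KCNMB3, a beta subunit of the large-conductance channel, had 33 and 20 counts against 51 and 54 (chr3:178957530-178984790, log2 fold change 1.01, SE 0.276, adjusted p = 0.0297). The pseudogene LRRFIP1P1, which lies inside KCNMB3 on the same strand, had 30.0 and 30.0 against 71.5 and 70.2 estimated counts, and PIK3CA overlaps KCNMB3 on the opposite strand. How reads were divided between them is not stated, so the value of KCNMB3 is uncertain. The call of KCNMB3 was lost with DESeq2 and without control replicate 2 or either TET1-CD library, with adjusted p from 0.0036 to 0.253. KCNIP3, a calcium-binding partner of the KCND channels, had 71 and 71 against 67 and 73 counts, and its log2 fold change was -0.01 (SE 0.189, adjusted p = 0.980). The other 5 tested genes, KCNAB3, KCNIP2, KCNIP4, KCNMB4 and KCNE1L, had log2 fold changes from -0.67 to 0.29 and were not called.

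**Figure D3:**
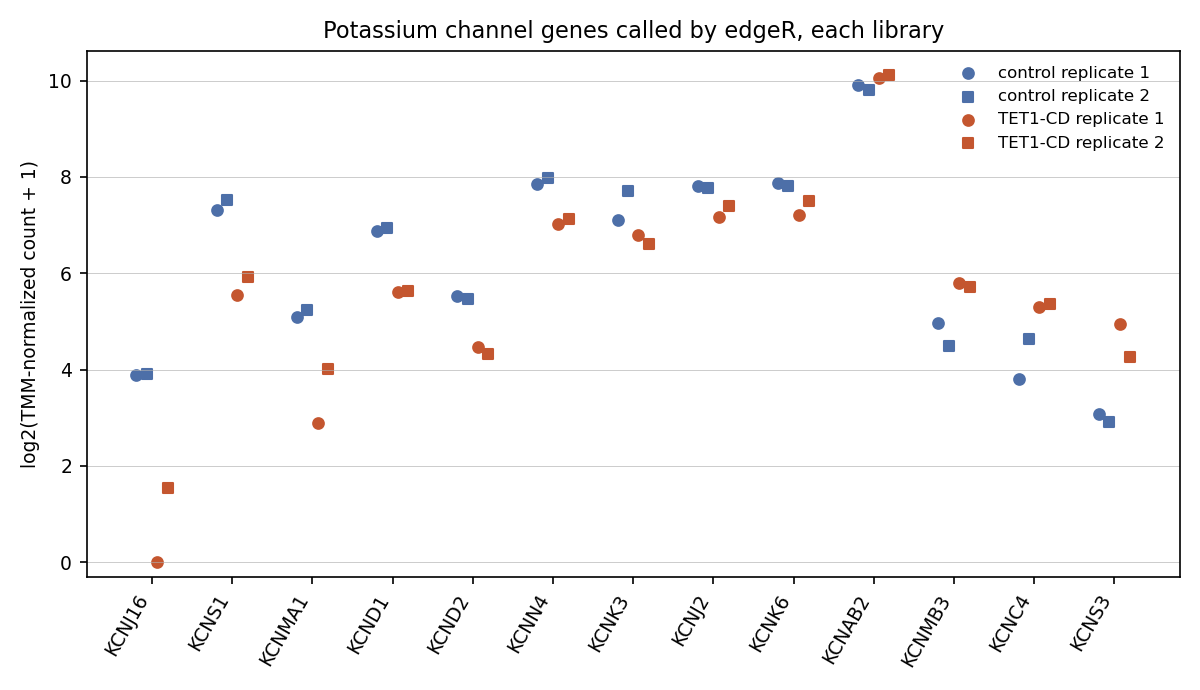
Counts of the 13 called genes after TMM scaling, as log2(count + 1) on the y axis, with 1 point per library (blue control, red TET1-CD, circles for replicate 1 and squares for replicate 2), genes ordered by log2 fold change. The pair of TET1-CD points lies apart from the control pair for each gene, widely for KCNJ16 and KCNS1 and narrowly for KCNAB2.

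Summed over a class, scaled counts were on average lower in TET1-CD cells in 5 classes and higher in 1. The summed log2 ratio of TET1-CD to control was -1.07 for modifier genes, -0.82 for calcium- and sodium-activated genes, -0.34 for pore-forming genes, -0.21 for K2P genes, -0.20 for inward rectifiers and 0.22 for auxiliary genes. Over all 94 genes it was -0.13. With 2 libraries against 2, the exact permutation test (two-sided) gave p = 0.333 for each, the smallest value this design can give. Single genes held much of each sum. KCNS1 held 80.7% of the modifier counts, KCNAB2 83.9% of the auxiliary, KCNN4 77.5% of the calcium- and sodium-activated, KCNK1 59.1% of the K2P, KCNJ2 54.2% of the inward rectifier and KCND1 41.8% of the pore-forming counts. Without these genes the pore-forming sum was 0.30, the modifier sum 1.10 and the inward rectifier sum 0.15 on the log2 scale, each of the opposite sign.

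Of the 67 genes not tested, 9 had 0 counts in both control libraries and counts in both TET1-CD libraries: KCNE3, KCNG3, KCNH1, KCNH2, KCNH5, KCNJ10, KCNK13, KCNQ5 and KCNT1, with 16 and 22 counts in all. The converse held for 1 gene. Of the 53 untested potassium channel genes with any count, these were 17% and 1.89%, where 4.89% and 3.17% of all 10588 such genes showed either pattern, in that order. KCNH2, the cardiac hERG channel gene, had 0 and 0 against 3 and 4 counts, and KCNH1, the EAG1 gene, 0 and 0 against 2 and 4. At these depths a difference of single genes was not detectable. The number of potassium channel genes with any count was 48 and 58 in control and 57 and 65 in TET1-CD libraries, so the groups overlapped.

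Other genes of potassium handling and cation channels were counted for context. Among 17 genes of accessory proteins, 8 were tested and 25% of these called, against 19.7% of all genes, and ABCC9, the sulfonylurea receptor that joins KCNJ8, was called higher (572 and 515 against 651 and 671 counts, log2 fold change 0.30, adjusted p = 0.0300). Among 26 genes of potassium pumps and cotransporters, 10 were tested and 1, or 10.0%, was called, SLC9A7 (log2 fold change -0.35, adjusted p = 0.0476), named here after its value was seen. Among 73 genes of other cation channels, 34 were tested, 6 were called higher and 7 lower, together 38.2%. Of those with changes of at least 2-fold, TRPC4 and TRPM6 were among the genes with the smallest p, and both rose. TRPC4, a receptor-operated calcium-permeable channel gene, had 10 and 12 against 84 and 73 counts (log2 fold change 2.84, SE 0.310, adjusted p = 2.49e-04), and TRPM6, a magnesium-permeable channel gene, 21 and 16 against 50 and 63 (log2 fold change 1.62). No test compared the lists with each other.

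**Figure D4:**
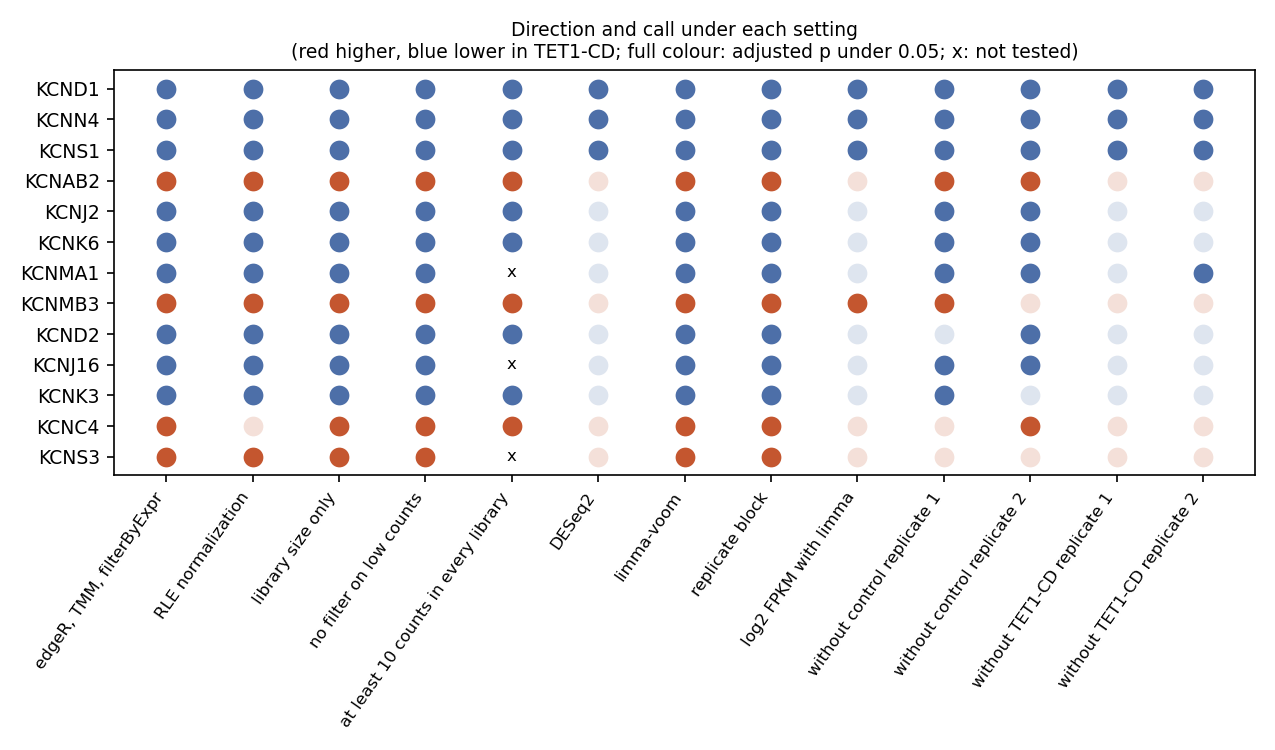
Direction and call of the 13 called potassium channel genes (y axis) in the main test and in each of 12 alternatives (x axis), red for higher and blue for lower in TET1-CD, full colour for an adjusted p under 0.05, x where a gene was not tested. The rows of KCND1, KCNN4 and KCNS1 are in full colour throughout, and the columns of DESeq2, log2 FPKM and the omission of a TET1-CD library are mostly pale.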

How the data were processed

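RNAseq of 2 control and 2 TET1-CD libraries of T24 cells was analysed, grouped by their labels. The authors deposited an FPKM value and an expected count (an estimated fragment number, not always whole) per transcript. The submitters' processing notes name cutadapt 1.9.1, HISAT2 2.0.1, HTSeq 0.6.1, DESeq2 and the hg19 build. The program that made the estimated counts, the annotation release and the strandedness are not given in the sources used here, so reads of genes that overlap on opposite strands cannot be told apart.

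Expected counts were added up by gene identifier and rounded to whole numbers. Groups were compared with edgeR 4.0.16 in R 4.3.3 (glmQLFit and glmQLFTest, TMM factors 0.993 to 1.00, filterByExpr, no block), with Benjamini-Hochberg adjustment over 14573 genes. Standard errors are the size of the log2 fold change over the root of its F statistic. Normalised read counts are counts scaled by TMM, and their SD is over n = 2 libraries. Intervals for low counts are exact at 95%. The study's own tool, DESeq2 1.42.0, limma-voom (limma 3.58.1), RLE factors, library size alone, other filters (none, or 10 counts in every library), a replicate block, log2(FPKM + 0.1) with limma at a mean of at least 0.1 FPKM, and the omission of each library were the alternatives. A simulation of 14573 genes altered 97 of them by 2-fold and 103 by 4-fold. Of these, edgeR found 81.4% and 96.1%, and DESeq2 74.2% and 91.3%. False calls numbered 17 among 195 for edgeR, 18 among 196 for limma-voom and 5 among 171 for DESeq2. Far fewer genes were altered there than edgeR called in the data, and recovery was not split by expression level. Whether these rates hold for low genes such as the potassium channel genes was therefore not tested.

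Genes named by rule were those called and the 2 tested genes with the highest FPKM in each class. Also named by rule were those above 3 counts in both libraries of one group and at most 3 in both of the other. From each other list, up to 3 genes called with a 2-fold change were named. Further genes fall outside these rules and were named with their values known. Among them are KCNQ3, KCNU1, KCNT2, KCNJ12, KCNJ14, KCNH1, KCNH2, ABCC9 and SLC9A7. The members, classes and lists were chosen with earlier results of these data known. Results of a few genes are not reported here.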

Additional observations from a re-analysis of the deposited data

How the results depend on the processing

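The 13 calls kept their sign in every alternative that tested them, which their non-overlapping groups made nearly certain in advance. DESeq2 called 1472 genes in all, 332 of them with a fold change of at least 2, against 2865 and 549 by edgeR. Of potassium channel genes DESeq2 called 3 (3 lower, and 0 higher), 2 of them with a fold change of at least 2. With log2 FPKM in limma, 1264 genes were called, 330 with at least 2-fold, and 4 potassium channel genes, 1 higher and 3 lower, all 4 with at least 2-fold. With 10 counts in every library, 332 genes and 5 potassium channel genes were called with at least 2-fold. When 1 library was left out, the calls ranged from 832 to 3779 genes and from 323 to 617 with at least 2-fold, and potassium channel calls from 3 to 11, from 0 to 3 higher, from 3 to 8 lower, and from 2 to 7 with at least 2-fold. The fewest calls came without a TET1-CD library. Without the gene with most counts, the summed log2 ratios were -0.32 for all potassium channel genes, 0.30 for pore-forming, 1.10 for modifier, -0.71 for calcium- and sodium-activated, 0.15 for inward rectifier, -0.51 for K2P and 0.15 for auxiliary genes.

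The labels do not say whether same-numbered libraries share a culture or day. Their deviations from the group means correlated at 0.0071, which with 2 libraries per group cannot exclude a shared batch. With the replicate block, 3235 genes were called, and the 13 potassium channel genes called were the same 13. RLE factors ended the call of KCNC4 alone among the 13. No filter added KCNJ4. Depth limits the 67 genes not tested, which held at most 16 counts in any library.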
